A study of Homo sapiens with 16 samples.

Results

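The data described here are the authors' own comparison of RNA recovered with Strep-tagged ALKBH5, deposited as a table with 1 row per annotated gene. All rows of that table were taken, 16324 of the 32648 rows held by the series' pair of tables, and they were described by annotated RNA class, gene family, listed length and chromosome. By title, 6 of the 16 libraries belong to it: 3 from RNA that came down with Strep-ALKBH5 (RIP-seq, sequencing of RNA recovered with a protein) and 3 from the matching input RNA before pull-down. Both groups came from UM-SCC-1 by label, a long-used human cell line from a squamous carcinoma of the head and neck, after infection with a lentivirus for Strep-ALKBH5 and selection with puromycin. Bait and input therefore share the overexpressed ALKBH5. The Strep tag is a short peptide that binds a modified streptavidin, so the tagged protein and what is bound to it can be collected on beads. Cells were lysed in a mild detergent (NP-40), RNA was fragmented, and stranded libraries were made from total RNA, so RNAs without a poly(A) tail are measured as well. Libraries of a Strep-tagged empty vector exist by title, but nothing states that they entered the fit, so binding to beads may not have been subtracted.

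For each gene the table gives a log2 fold change, an F statistic with p-value and adjusted p-value from edgeR, and an average log2 CPM (the count scaled to library size, over the libraries of the fit). It holds no value per library, so neither the depth of each library nor the spread between replicates can be shown, and nothing states that replicates came from separate cultures. Nor does it say which groups were compared and in which direction. Values are therefore called positive or negative as signed in the table, and a gene was counted as called at an adjusted p under 0.05. An approximate standard error (SE) of each log2 fold change was computed as its size divided by the square root of F. The table's name carries siCtrl, a word that none of the titles holds.

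The tagged gene itself is the check that the labels allow. ALKBH5 (ENSG00000091542, chromosome 17, 18183078 to 18209954, hg38) had the average abundance of rank 20 among all rows and of rank 5 among protein-coding rows, with a log2 CPM of 12.3 in the authors' deposited table. Its log2 fold change there was 1.28 ± 0.28 (approximate SE; edgeR, adjusted p = 0.00158), which is rank 2889 of the table. The cell label was set against its markers. Of 17 fixed markers of squamous carcinoma or keratinocytes, 6 are among the rows, with CAV1, EGFR, KLF5, ITGB4 and LAMA3 among them. The keratins KRT5, KRT14, KRT6A and KRT17, the squamous regulator TP63 and the desmosomal cadherin DSG3 are not among them. Of 9 markers of neurofilaments and of an embryonic kidney line, 6 are among the rows, and the neurofilament genes NEFL and NEFM had log2 CPM values of 8.1 and 7.7 in the authors' deposited table. These 6 rows as a list had a median log2 CPM of 2.77, beside 2.90 for the 6 squamous rows and 4.05 for all rows. Of the markers of fibroblasts 3 of 6, and of those of leukocytes 1 of 5, are among the rows. The defining keratins of the labelled cell type were thus not seen in this table, and the cells are called by their label only.

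ALKBH5 is an enzyme of the nucleus that removes the methyl group of N6-methyladenosine (m6A), the most common internal mark of mRNA. The mark is written in the nucleus by the METTL3 and METTL14 methyltransferase with cofactors such as WTAP, VIRMA and RBM15, and it is read by YTH domain proteins that act on splicing, export, translation and decay. RNA that stays with a nuclear protein through lysis can be a substrate, part of a shared complex or a bystander, and RIP without crosslinking does not tell these apart. In the series, the stated design asks how far ALKBH5 and RBM33 share RNAs and whether ALKBH5 depends on RBM33 to reach them. None of the 16 library titles names a loss of RBM33, so the second question cannot be asked of these libraries by title.

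Small RNAs of the nucleolus and Cajal body stood at the positive end of the table, most spliceosomal RNA rows and 47.9% of long noncoding RNA rows were positive, and processed pseudogenes and short, abundant mRNAs lay on the negative side. Of the 16324 rows, 4978 were called positive (30.5%) and 4745 negative (29.1%), and 6601 were not called, so 59.6% of rows were called in either direction. The median log2 fold change of all rows was 0.03, with quartiles of -0.73 and 0.92, and values ran from -5.93 to 8.46. Calls of at least 1 log2 unit numbered 3433 on the positive and 2641 on the negative side. The rows carry 22 annotated gene types, of which protein-coding genes make up 13210, with 3632 positive and 4397 negative calls and a median of -0.08. Average abundance was shared unequally. Protein-coding genes held 61.1% of the summed CPM, mitochondrial rRNA 16.4% and the annotated class misc_RNA, which includes the RNA of the signal recognition particle, 10.1%. Of the rows, 3349 overlap another row on the same strand, where reads of the neighbour may be counted.

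**Figure D1:**
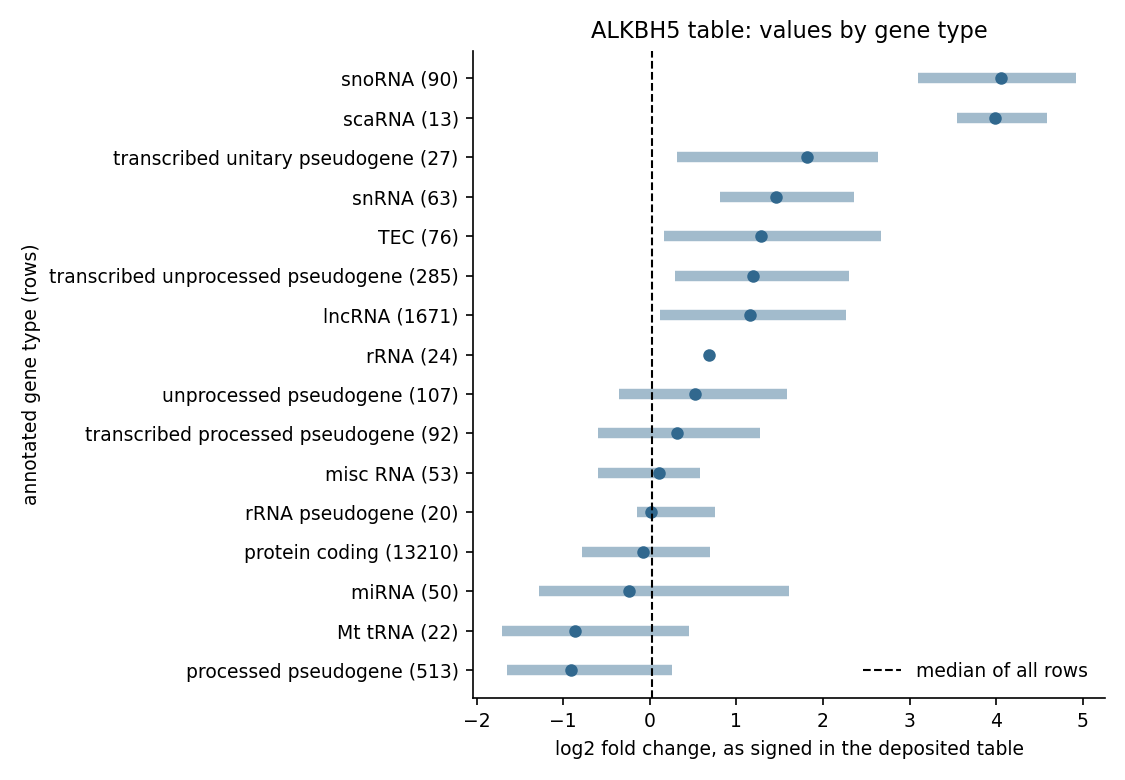
Log2 fold change, as signed in the deposited table, for each annotated gene type with at least 10 rows (number of rows in parentheses): points are medians, bars run from the first to the third quartile, and the dashed line is the median of all rows. The snoRNA and scaRNA medians of 4.06 and 3.98 stand apart at the right, and the processed pseudogene median of -0.91 is the lowest of the types drawn.

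Small nucleolar RNAs (snoRNAs) guide the chemical modification of ribosomal RNA. Those with H/ACA boxes guide the change of uridine to pseudouridine, and those with C/D boxes guide methylation of the ribose. Of 90 snoRNA rows 85 were positive and 0 negative, with a median of 4.06 and quartiles of 3.10 and 4.92. The 51 H/ACA RNAs were positive without exception, at 1.91 to 6.45 with a median of 4.70. Of 32 C/D RNAs 28 were positive, with a median of 3.18. The uncalled C/D RNAs were SNORD43 at 1.92, SNORD86 at 0.84, SNORD49B at 0.82 and SNORD101 at 0.81 in the authors' deposited table. The H/ACA rows thus all lay above the third quartile of all rows, whereas the C/D RNAs reached down to values within the quartiles. SNORD43 lies in RPL3 and SNORD86 in NOP56. SNORD15B, a C/D RNA inside the ribosomal protein gene RPS3, had 5.59 ± 0.31 in the authors' deposited table. SNORA64 inside RPS2 had 5.94 ± 0.53, and SNORA47 inside ZBED3 had 6.31 ± 0.57 in the authors' deposited table. RNAs of the Cajal body, which guide modification of spliceosomal RNAs, were positive for 16 of 16 listed rows, with a median of 4.05. SCARNA5, inside the autophagy gene ATG16L1, led them with 5.03 ± 0.63 in the authors' deposited table.

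The RNAs of the spliceosome, the particle that removes introns, were positive to a lesser degree. Of 63 snRNA rows 43 were positive and 0 negative, with a median of 1.45. U1 rows, which recognise the start of an intron, had 14 positive of 22 and a median of 1.85. The highest were 2 annotated U1 pseudogenes, RNU1-27P at 5.44 ± 0.37 and RNU1-28P at 4.99 ± 0.52 in the authors' deposited table. U2 rows had 11 positive of 17, most of them near-identical copies between 1.03 and 1.04, which are not separate measurements. Of the U4 and U6 rows 7 of 11 were positive, and RNU4-1 had 4.13 ± 0.36 in the authors' deposited table. U5 rows were positive for 7 of 8, among them RNU5A-1 at 2.85 ± 0.30 in the authors' deposited table. The minor spliceosome, which handles a rare class of introns, had 4 of 4 RNAs positive: RNU4ATAC at 2.08, RNU11 at 1.74, RNU6ATAC at 1.62 and RNU12 at 1.59 in the authors' deposited table. RNU11 and RNU12 overlap the lncRNA rows AL360012.1 and Z93241.1. Copies of U1, U2 and U6 are near-identical and can share reads, so the value of a single copy is uncertain.

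Other abundant noncoding RNAs were spread over both sides. The 7SL RNA, the scaffold of the signal recognition particle in the cytoplasm, was not called in its 3 main copies. RN7SL1, with a log2 CPM of 15.5, stood at -0.59 in the authors' deposited table (edgeR, adjusted p = 0.304). RN7SK, which holds the transcription elongation factor P-TEFb inactive in the nucleus, stood at -0.11 in the authors' deposited table (edgeR, adjusted p = 0.767). The nuclear processing RNAs were positive. RPPH1, the RNA of RNase P, which is covered by the row AL355075.4, had 1.17 ± 0.28 in the authors' deposited table, and TERC, the template RNA of telomerase, had 2.01 there. MALAT1, a long RNA of nuclear speckles that holds the small row AP000769.5, had 3.10 ± 0.24 in the authors' deposited table. Of the RNAs with mainly cytoplasmic roles, RNY4, a Y RNA bound by the Ro protein, had -0.70, the vault RNA VTRNA1-1 had 0.76, and BCYRN1 had -0.27 without a call in the authors' deposited table. NORAD, a cytoplasmic sponge of Pumilio proteins, had 0.88 in the authors' deposited table. The large mitochondrial rRNA MT-RNR2 was the most abundant row of the table, with a log2 CPM of 17.4, and had -2.88 ± 0.55 in the authors' deposited table. Mitochondrial tRNAs were negative for 7 of 22 and positive for 1, MT-TA at 2.65 in the authors' deposited table. The 5S ribosomal RNA copies stood between 0.51 and 0.68 with near-identical values. Of the 24 rows of the annotated class rRNA, 21 were not called, 2 were positive and 1 was negative.

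Most snoRNAs are cut out of the introns of a host transcript, so each was set beside the row that contains it on the same strand. A host was taken as a protein-coding row where there was one, and the longest otherwise. The snoRNA value did not follow that of its host. Of 84 snoRNA rows inside a host, 83 had the higher value, with a median difference of 4.15 on the log2 scale (-1.31 to 8.42). Their 63 hosts had a median of -0.72, with 18 positive and 35 negative, and 40 positive snoRNAs lay in negative hosts. Across these pairs Pearson's r was 0.06, a description over rows that share hosts and are not independent. The row named U3 in the germ cell gene TEX14 was the exception, with 0.43 beside 1.74 for its host in the authors' deposited table. The 6 snoRNA rows that overlap no other row had a median of 3.18. Small Cajal body RNAs were above their hosts in 13 of 13 rows, with a median difference of 3.32.

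Ribosomal protein genes give the clearest pairs, since they house snoRNAs and their own mRNAs were negative. Of 22 snoRNA rows in 17 such hosts 20 were positive, with a median of 4.05 (0.81 to 6.45), and the hosts were negative without exception, at -2.18 to -0.74 with a median of -1.54. SNORA65 had 5.08 and its host RPL12 -2.18 in the authors' deposited table. SNORA27 had 5.28 and its host RPL21 -2.02 there. SNORA70 had 5.55 in the authors' deposited table, and RPL10, which contains it, had -0.74, the value nearest to 0 among these hosts. RPS12 houses SNORA33 at 5.65 and SNORD101 at 0.81 in the authors' deposited table and so gave both a high and an uncalled value within 1 gene. Pairs of like kind were found outside the ribosome. NCL, the gene of nucleolin, had -1.30 and SNORA75 within it 4.93 in the authors' deposited table. The tumour protein gene TPT1 had -2.01 and SNORA31B 3.91, and the chaperonin gene TCP1 had -1.32 and SNORA20 5.08 in the authors' deposited table. Where snoRNA reads are also counted for the host, the host's value includes them. Whether a snoRNA row measures the mature RNA or a piece of its intron was not tested.

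**Figure D2:**
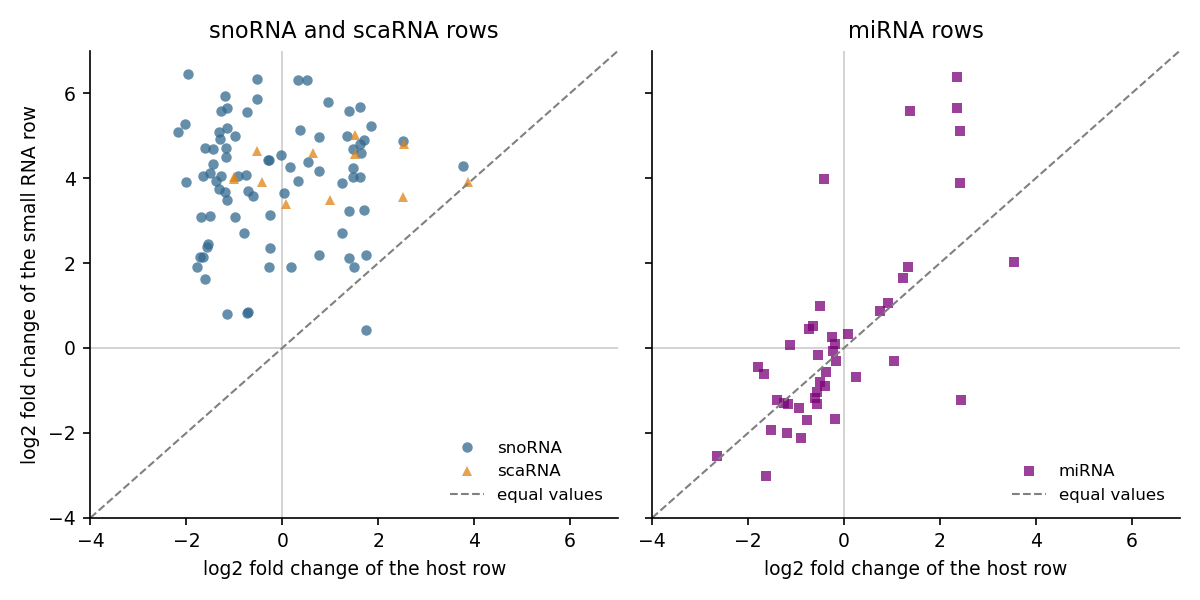
Log2 fold change of each small RNA row (vertical) against that of the row which contains it (horizontal), as signed in the deposited table: snoRNA and scaRNA rows on the left, miRNA rows on the right, with the dashed line at equal values. Of the 84 snoRNA rows 83 lie above the line, as do the 13 scaRNA rows, whereas the 43 miRNA rows lie on both sides of it. Rows listed more than once with the same values lie on top of each other.

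MicroRNA rows behaved differently from snoRNA rows. They mark the hairpins from which short mature microRNAs are cut, and a library of fragmented total RNA can read the hairpin or its host transcript. Of 50 miRNA rows 15 were positive and 10 negative, with a median of -0.24. The positive share of 30% was close to the 30.5% of all rows, and the negative share was 20% beside 29.1%. Of the 43 inside a host, 8 were positive with a positive host, 8 negative with a negative host, 2 positive with a negative host and 0 the reverse, and Pearson's r with the host was 0.73. The mature sequences of the called rows are shown for those discussed here, since they are what the row's name stands for. They are from RefSeq (GRCh38.p14) and were found for 39 of the 50 rows. Capitals mark the seed, bases 2 to 8, which pairs with target mRNAs. The positive rows gave these sequences.
hsa-miR-3064-5p: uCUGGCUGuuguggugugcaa
hsa-miR-5047: uUGCAGCUgcgguuguaaggu
hsa-miR-1248: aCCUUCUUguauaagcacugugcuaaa
hsa-miR-6516-5p: uUUGCAGUaacaggugugagca
hsa-miR-6501-5p: aGUUGCCAgggcugccuuuggu
hsa-miR-3648: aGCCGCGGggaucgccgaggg
The negative rows gave these sequences.
hsa-miR-1244: aAGUAGUUgguuuguaugagaugguu
hsa-miR-3652: cGGCUGGAggugugagga
hsa-miR-3940-5p: gUGGGUUGgggcgggcucug
hsa-miR-7703: uUGCACUCuggccuucucccagg
hsa-miR-4721: uGAGGGCUccaggugacggugg
hsa-miR-3658: uUUAAGAAaacaccauggagau

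No seed occurs more than once in this list. MIR3064 (chr17:64500774-64500839) and MIR5047 (chr17:64501214-64501313) both lie in the RNA helicase gene DDX5, and had 5.10 ± 0.37 and 3.88 beside 2.43 for the host in the authors' deposited table. MIR1248 (chr3:186786672-186786777) lies in the initiation factor gene EIF4A2 and had 5.58 beside 1.39 for the host in the authors' deposited table. It shares 103 bases with the snoRNA SNORA81, which had 5.59. MIR6516 (chr17:77089417-77089497), in SNHG20 and SEC14L1, shares 77 bases with the Cajal body RNA SCARNA16, and these had 3.99 and 3.90 in the authors' deposited table. Whether these overlapping rows count the same reads was not tested. MIR3648-1 and MIR3648-2, copies on chromosome 21, had 5.65 and 5.12 in the authors' deposited table, and the first lies in the lncRNA row FP671120.4 at 2.35. MIR6501 (chr21:33550662-33550728) had 1.90 beside 1.34 for its host SON, a protein of nuclear speckles, in the authors' deposited table.

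Most negative hairpins stood close to negative hosts. MIR1244-1 (chr2:231713314-231713398) lies in PTMA, the gene of the abundant nuclear protein prothymosin alpha, and had -2.54 beside -2.66 for the host in the authors' deposited table. MIR1244-2 on chromosome 5 has the same hairpin sequence and had -2.52 in the authors' deposited table, so both rows may draw on PTMA-like reads. MIR3652 (chr12:103930425-103930555) had -1.29 ± 0.15 and its host HSP90B1, an endoplasmic reticulum chaperone, -1.25 in the authors' deposited table. MIR3940 (chr19:6416410-6416511) had -1.41 and its host KHSRP, a splicing and decay factor, -0.94 in the authors' deposited table. MIR7703 had -1.93 beside -1.52 for PSME2, a proteasome activator subunit, in the authors' deposited table. MIR4721 had -1.32 beside -1.17 for TUFM, a mitochondrial elongation factor, in the authors' deposited table. In these pairs the hairpin and its host differed by less than 1 log2 unit. The gap was wider for MIR3658, at -1.67 in UCK2, whose -0.19 was not called, in the authors' deposited table.

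Long noncoding RNAs (lncRNAs) had 801 positive and 78 negative of 1671 rows, with a median of 1.15, and in each subclass that symbols define positive calls outnumbered negative ones. Host transcripts of microRNAs had the highest median, 3.03, with 16 of 20 positive and 0 negative. MIR29B2CHG had 5.54 ± 0.40 and MIR17HG, the host of an oncogenic microRNA cluster, had 4.11 ± 0.24 in the authors' deposited table. Long intergenic RNAs were positive for 90 of 144 and negative for 2, with a median of 1.73. LINC00342 had 5.13 ± 0.24 and LINC00174, which overlaps the pseudogene row AC008267.2, had 3.83 ± 0.18, and the negative members were LINC00467 at -1.55 and LINC02609 at -1.25 in the authors' deposited table. LINC00632, with the highest average abundance of this subclass, stood at -0.02 in the authors' deposited table. Intronic or sense-overlapping transcripts had 10 of 13 positive and a median of 2.35, led, beside the imprinted KCNQ1OT1, by N4BP2L2-IT2 at 5.22 (inside N4BP2L2 at 1.34) and ANKRD10-IT1 at 5.07 (inside ANKRD10 at 2.77) in the authors' deposited table. Transcripts from divergent promoters had 30 of 61 positive, 1 negative and a median of 1.29, with CAPN10-DT at 4.54 and GMDS-DT at 4.38 in the authors' deposited table. The negative one was PCCA-DT at -1.21 in the authors' deposited table.

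Host transcripts of snoRNAs had the largest share of negative calls among the lncRNA subclasses that symbols define. Of 25 rows 13 were positive (52%) and 5 negative (20%), beside 30.5% and 29.1% of all rows, with a median of 0.65. SNHG22 had 4.71 ± 0.53, SNHG3 had 4.30 ± 0.35 and SNHG20 had 2.95 ± 0.32 in the authors' deposited table. The negative rows were SNHG5 at -0.98, SNHG29 at -0.73, EPB41L4A-AS1 at -0.65, SNHG16 at -0.60 and SNHG15 at -0.57 in the authors' deposited table. GAS5, a growth arrest transcript that houses several C/D RNAs, had 1.06 in the authors' deposited table. SNHG3 lies inside RCC1 on the same strand, and SNHG20 overlaps SEC14L1 in part. Since SNHG rows contain snoRNA rows, their values can include snoRNA reads.

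Antisense lncRNAs had 154 positive and 20 negative of 313 rows, with a median of 1.10. SLFNL1-AS1 had 8.46 ± 0.51, the highest value of the table, at a log2 CPM of 3.6 in the authors' deposited table. GABPB1-AS1, opposite a subunit of the transcription factor GABP, had 3.66 ± 0.13 in the authors' deposited table. On the negative side, ATP2A1-AS1 had -2.19 ± 0.23 and RNASEH1-AS1 had -1.59 ± 0.24 in the authors' deposited table. Antisense rows were also paired by position with the protein-coding row on the other strand. Over 811 such pairs, of 680 lncRNA and 779 protein-coding rows, the lncRNA median was 1.06 and the partner median -0.09, and Pearson's r across pairs was 0.06. In 123 pairs a positive lncRNA faced a negative partner, in 126 both were positive, in 17 both negative, and in 7 the lncRNA was negative and the partner positive. The 991 lncRNA rows outside such pairs had a median of 1.22 and 499 positive calls. The strand setting of the counting is not given in the sources used here, and without strand the reads of an antisense pair cannot be told apart.

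Pseudogenes followed their kind. Processed pseudogenes, which are copies of spliced mRNAs set back into the genome, had 71 positive and 193 negative of 513 rows and a median of -0.91. Of them 351 carry the symbol of a listed protein-coding parent, with a median of -1.04 beside -1.43 for the parents. In 149 of these pairs both were negative, in 7 both positive, in 22 the copy was positive and the parent negative, and in 0 the reverse. Copies of ribosomal protein genes were negative for 62 of 105 and positive for 3, with a median of -1.40. HMGB1P6 had -2.94 beside -2.33 for HMGB1, a chromatin protein, and PTMAP2 had -3.20 beside -2.66 for PTMA in the authors' deposited table. NPM1P27, which lies in FAM172A, had -1.94 beside -2.17 for NPM1, the nucleolar protein nucleophosmin, in the authors' deposited table. Against this, KRT8P33, which lies in CEP120 at 0.33, had 4.92 beside -1.49 for the keratin gene KRT8 in the authors' deposited table. The parent-named copies that overlap another row on the same strand had a median of 0.52, and the 276 that do not overlap had one of -1.24. Reads of a parent mRNA can be assigned to its copies, and how far this happened was not tested.

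Pseudogenes that arose by duplication and are transcribed lay on the other side. The class of transcribed unprocessed pseudogenes had 173 positive and 15 negative of 285 rows, with a median of 1.19. ANKRD19P, which overlaps the lncRNA row AL136981.4 at 5.99, had 5.98 and HERC2P2 had 3.48 in the authors' deposited table. SMG1P1 and SMG1P3, copies of a kinase gene of nonsense-mediated decay, overlap NPIPB5 and NPIPB3 and had 3.05 and 3.04 in the authors' deposited table. UBBP4, a ubiquitin copy, had -2.53 and RP9P had -2.14 in the authors' deposited table. Transcribed unitary pseudogenes, which have lost their function without a working copy in the genome, had 18 positive of 27 and a median of 1.82, with FER1L4 at 4.33 in the authors' deposited table. Unprocessed pseudogenes not marked as transcribed had 45 positive and 17 negative of 107. The nuclear copies of mitochondrial genes MTCO1P12 at -1.54 and MTATP6P1 at -1.61 were among the negative ones in the authors' deposited table. The class TEC, loci still to be tested experimentally, had 38 positive and 4 negative of 76 rows with a median of 1.29. The 31 that overlap no other row had 9 positive (29.0%, beside 30.5% of all rows) and a median of 0.81. Of the 76, 42 lie inside a host, which they exceeded by a median of 1.42.

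Among mRNAs, families that build the ribosome, the respiratory chain, the proteasome and the chaperonin were negative almost throughout, and the KMT2 and SETD1 methyltransferases, CHD remodellers, ZNF proteins, collagens and laminins had more positive than negative rows. Most family medians are given beside the median of all protein-coding rows in the length bins of the members. This was done because values were higher at greater listed length across the table. Abundance was not matched. With length and abundance each divided into 3 parts, short, abundant protein-coding rows had a median of -1.26. Abundant rows of middle length had one of -0.52. The median log2 CPM was 8.54 for cytosolic and 5.34 for mitochondrial ribosomal proteins. How much of a family's distance from like length goes with abundance was not tested. Of 85 rows for proteins of the cytosolic ribosome 82 were negative and 0 positive, with a median of -1.59 beside -0.44 at like length. RPL23A had -2.38 ± 0.21, RPLP2 had -2.21 ± 0.28 and RPL34 had -2.13 ± 0.14 in the authors' deposited table. The rows not called were RPL3L, the form of heart and skeletal muscle, at 0.92, RPS27L at -0.36 and RPS29, which overlaps the pseudogene RPL32P29, at -2.16 in the authors' deposited table (edgeR, adjusted p = 0.104). Mitochondrial ribosomal protein mRNAs had 74 of 78 negative, with a median of -1.31 beside -0.59. MRPS23 had -2.37 ± 0.13 and MRPL1 had -2.45 ± 0.19, and MRPS25, at 0.50, was the positive member in the authors' deposited table.

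Ribosomal protein genes are known for a feature that the table did not use, a run of pyrimidines at the start of the transcript (the TOP motif). Since the family moved together, the sequence around its annotated starts is shown. Windows from 20 bases before to 10 after the annotated start are given for 5 genes, from RefSeq promoters (GRCh38.p14). They were chosen as examples that hold the pyrimidine motifs CTTTC or CTTCC. Capitals mark the motif CTTTC or CTTCC.
RPL35 (chr9:124861948-124861977, minus strand): aggtcagccccgcctaCTTCCtCTTTCcct
FAU (chr11:65122125-65122154, minus strand): tgacgcgccctcgcttCTTCCtCTTTCtcg
RPL28 (chr19:55385912-55385941, plus strand): tcgcctcgcccctcgcCTTCCtCTTTCcgt
RPL34 (chr4:108620556-108620585, plus strand): ctggcaaaggcttttttCTTCCtCTTCCgg
RPL41 (chr12:56116613-56116642, plus strand): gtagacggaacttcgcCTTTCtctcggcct
These 5 genes had -2.04 (RPL35), -2.28 (FAU, which overlaps SYVN1), -0.65 (RPL28), -2.13 (RPL34) and -1.50 (RPL41) in the authors' deposited table. Motifs were counted within 10 bases of the start, first on the coding strand. CTTTC stood in 34.9% of 83 windows of 67 ribosomal protein genes, beside 3.24% of 15368 windows of 10355 protein-coding genes. CTTCC stood in 30.1% of them beside 5.85%, and a related motif, CTCTT, in 28.9% beside 2.81%. At least 1 of the 3 was found in 46 windows (55.4%) beside 10.5%; they may overlap, and a window was counted once. On the other strand the shares were 2.41% and 7.24%. Mitochondrial ribosomal protein genes, which were also nearly all negative, held at least 1 in 14.1% of windows on the coding strand, and initiation factor genes in 19.7%. Genes of replication-dependent histones, a mostly negative family described below, held at least 1 in 28% of windows and CTTTC in 24%. The motifs were thus most common in cytosolic ribosomal protein genes, above the background in histone genes and nearer to it in mitochondrial ribosomal protein genes. A match is a description of letters, not a measured site. It can lie before the annotated start, so it need not be a TOP motif of the transcript.

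The nuclear-encoded subunits of the respiratory chain were negative in the same way. Complex I, the NADH dehydrogenase, had 32 negative and 2 positive of 39, with a median of -1.42 beside -0.59. NDUFS4 had -2.82 ± 0.29 and NDUFS5 had -2.72 ± 0.16, and the positive members were NDUFA10 at 0.38 and NDUFA4L2 at 1.67 in the authors' deposited table. Complex III had 8 of 9 negative, complex IV 11 of 11 and ATP synthase 19 of 19, with medians of -1.58, -1.78 and -1.41 beside -0.59, -1.01 and -0.59. COX6C, a subunit of cytochrome c oxidase, had -2.65 ± 0.14 in the authors' deposited table. ATP5IF1, the inhibitor of ATP synthase, had -2.53 ± 0.22 in the authors' deposited table. The V-ATPase, which acidifies lysosomes, was more mixed, with 8 negative and 3 positive of 21. ATP6V1F had -2.62 ± 0.14 and ATP6V0A1, which holds the rows AC067852.3 and MIR5010, had 1.05 ± 0.13 in the authors' deposited table.

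Protein turnover and folding gave the same picture. The proteasome had 39 of 45 negative and a median of -1.18 beside -0.28. PSMA7, a core subunit, had -2.23 ± 0.15, and the large activator PSME4, at 0.37, was the positive member in the authors' deposited table. Subunits of the chaperonin and prefoldin, which fold actin and tubulin, had 14 of 15 negative and a median of -1.54 beside -0.44. PFDN4 had -2.60 ± 0.15 and CCT3 had -1.58 ± 0.16, and CCT6B, a form known from testis, had 1.32 in the authors' deposited table. The heat shock and DNAJ chaperones had 32 negative and 6 positive of 60, and HSP90AA1 had -2.08 ± 0.22 in the authors' deposited table. Ubiquitin-conjugating enzymes had 26 negative and 2 positive of 33, with a median of -0.93 beside -0.28. Deubiquitinases of the USP family, by contrast, had 20 positive and 14 negative of 48 and a median of 0.03 beside 0.18. USP35 had 2.20 ± 0.32 and the interferon-induced USP18 had -2.23 ± 0.17 in the authors' deposited table.

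Translation initiation factors were low for their length, with 41 negative and 4 positive of 54 and a median of -0.87 beside 0.04. Their median log2 CPM was 6.96, and abundant protein-coding rows of middle length had a median of -0.52, nearer to theirs. EIF3J had -2.40 ± 0.16 and EIF2S2 had -1.94 ± 0.15 in the authors' deposited table. The positive members were EIF4A1 at 1.70, EIF4A2 at 1.39, EIF4G3 at 0.95 and EIF4ENIF1 at 0.46 in the authors' deposited table. EIF4A1 and EIF4A2, the helicases of cap-dependent initiation, both contain snoRNA rows, such as SNORD10 at 4.90 in EIF4A1 and SNORA81 at 5.59 in EIF4A2 in the authors' deposited table. EIF4A1 also overlaps the readthrough gene SENP3-EIF4A1, at -0.86 there. Whether snoRNA reads enter these host values was not tested. The enzymes that load tRNAs in the cytosol had 11 negative and 2 positive of 17, with a median of -0.53 beside 0.10. Those of the mitochondrion had 3 negative and 6 positive of 17, with a median of 0.21 beside -0.28, and AARS2 had 1.40 ± 0.16 in the authors' deposited table. The counterparts of the cytosol and the mitochondrion thus lay on opposite sides of the values at like length, a difference that was not tested.

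**Figure D3:**
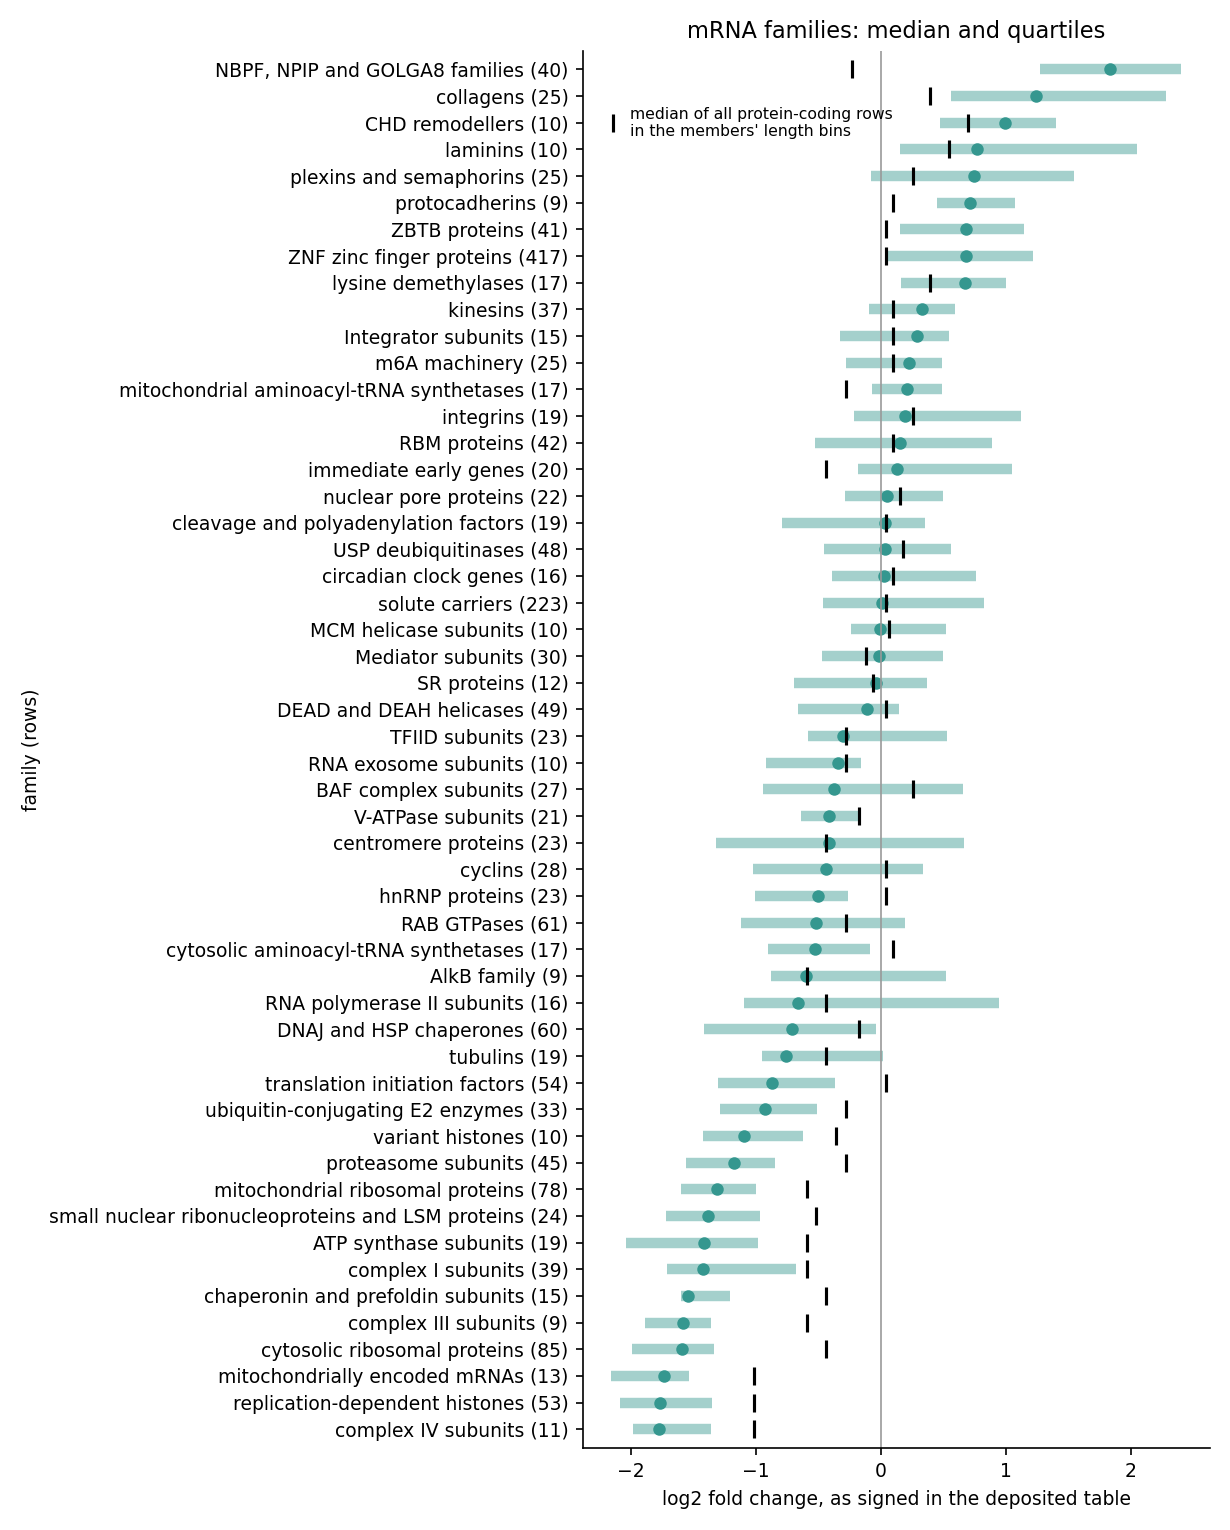
Log2 fold change, as signed in the deposited table, of mRNA families with at least 9 rows (number of rows in parentheses): points are medians, bars run from the first to the third quartile, and black ticks mark the median of all protein-coding rows in the members' length bins. Ribosomal, respiratory, proteasome and histone families lie left of their ticks, and the NBPF, NPIP and GOLGA8 families, collagens and zinc finger families lie right of theirs.

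Histone mRNAs of the replication-dependent kind, which end in a stem-loop, were negative for 48 of 53 rows and positive for 0, with a median of -1.77 beside -1.01 at like length. H1-2 had -2.38 ± 0.23, H2AC17, which overlaps H3C12, had -2.38 ± 0.17 and H4C4 had -2.02 ± 0.13 in the authors' deposited table. The histone variants, which are made throughout the cell cycle from polyadenylated mRNAs, were negative for 9 of 10 listed rows, with a median of -1.09 beside -0.36 at like length. H2AZ1 had -1.78 ± 0.17 and H3-3B had -1.24 ± 0.15 in the authors' deposited table. Both histone kinds were thus mostly negative and below the values at like length.

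Many promoters of replication-dependent histone genes hold a TATA box. It is shown in capitals for 4 genes chosen as examples that hold it, in the 50 bases before the start, from the same RefSeq promoters.
H2AC21 (chr1:149887966-149888015, minus strand): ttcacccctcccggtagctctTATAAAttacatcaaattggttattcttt
H2AC4 (chr6:26033619-26033668, minus strand): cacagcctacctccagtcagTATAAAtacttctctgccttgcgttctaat
H4C4 (chr6:26189113-26189162, minus strand): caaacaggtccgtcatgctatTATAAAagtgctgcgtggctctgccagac
H1-4 (chr6:26156279-26156328, plus strand): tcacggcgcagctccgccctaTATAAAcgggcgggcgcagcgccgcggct
TATAAA stood in 31 of 50 windows of this family (62%) and in 1.64% of the windows of all protein-coding rows, on the coding strand. On the other strand the shares were 6% and 0.657%. The other windows of the family lack these letters, and no binding was measured at these sites.

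Families of chromatin regulators differed from each other. The histone methyltransferases of the KMT2 and SETD1 group were positive for 7 of 7, with a median of 1.79 beside 0.39 at like length. SETD1B had 1.99 ± 0.16, KMT2C had 1.79 ± 0.13, KMT2A had 1.56 ± 0.13, and the lowest were KMT2E at 0.61 and SETD1A at 0.53 in the authors' deposited table. The lysine demethylases had 9 positive and 2 negative of 17. KDM6B, which removes the Polycomb mark, had 1.88 ± 0.13 in the authors' deposited table. KDM1A and KDM1B, the flavin-dependent demethylases, were the negative ones at -1.27 and -0.89 in the authors' deposited table. CHD remodellers had 9 of 10 positive, with a median of 0.99 beside 0.70, and CHD1L, which overlaps AC242426.2, was the negative one with -0.37 in the authors' deposited table. The BAF remodelling complex was split within itself, with 9 positive and 14 negative of 27. Its ARID subunits were positive, ARID1A at 1.66 ± 0.14 and ARID2 at 1.34 ± 0.18, and core subunits were negative, SMARCB1 at -1.30 ± 0.21 and SMARCE1, which overlaps AC073508.2, at -1.05 ± 0.11 in the authors' deposited table.

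Rows whose symbol starts with ZNF, for zinc finger, had 212 positive and 30 negative of 417, with a median of 0.68 beside 0.04 at like length. Most encode DNA-binding repressors of repeats and genes. ZNF780B, which overlaps the lncRNA row AC005614.2, had 2.98 ± 0.24, ZNF26 had 2.50 ± 0.17 and ZNF292 had 1.92 ± 0.14 in the authors' deposited table. Members against the trend included ZNF593 at -1.57, ZNF330 at -1.37 and ZNF622 at -1.29 in the authors' deposited table. ZNF593 and ZNF622 are known as factors of large ribosomal subunit assembly. The ZBTB proteins, which join a zinc finger to a BTB domain, had 20 positive and 2 negative of 41 and a median of 0.69 beside 0.04. ZBTB40 had 1.86 ± 0.13 in the authors' deposited table.

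Machinery of transcription was spread by subunit, with Mediator and the TBP-associated factors near the shares of all rows and RNA polymerase II mostly negative. Mediator, which links activators to RNA polymerase II, had 10 positive and 8 negative of 30 (33.3% and 26.7%, beside 30.5% and 29.1% of all rows). Across its members the value was higher at greater listed length (Spearman's rho 0.76, a description over 30 genes that share libraries), from MED10 at -1.52 to MED12L at 1.56 in the authors' deposited table. TBP-associated factors had 6 positive and 8 negative of 23 (26.1% and 34.8%). Their rho with length was 0.71, from TAF9, which overlaps AK6, at -1.60 to TAF1C, of the RNA polymerase I factor SL1, at 2.07 in the authors' deposited table. TAF1, the largest subunit of TFIID, had 1.86 ± 0.13 in the authors' deposited table. RNA polymerase II itself had 5 positive and 11 negative of 16 rows (68.8% negative), with a median of -0.66 beside -0.44 at like length. Its largest subunit POLR2A had 1.00 ± 0.13 and the small subunit POLR2I had -1.91 ± 0.20 in the authors' deposited table. POLR2I was the lowest row of this list, but POLR2A was not the highest, since the list reached 2.90. In Mediator and among the TBP-associated factors, then, genes of greater listed length had the higher values.

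Among splicing components, the core snRNP, LSM and hnRNP proteins were mostly negative, and SR and RBM proteins were near the shares of all rows (30.5% positive and 29.1% negative). The core snRNP and LSM proteins had 21 negative and 1 positive of 24, with a median of -1.38 beside -0.52. SNRPD1 had -1.86 ± 0.12, and LSM8, at 0.43, was the positive one in the authors' deposited table. SR proteins had 3 positive and 4 negative of 12 (25% and 33.3%), with SRSF5 at 1.37 ± 0.15 and SRSF3 at -1.07 ± 0.11 in the authors' deposited table. The hnRNP proteins had 15 negative and 1 positive of 23, HNRNPD at -1.50 ± 0.13 and HNRNPH1 at 0.61 ± 0.14 in the authors' deposited table. RBM genes had 15 positive and 12 negative of 42 (35.7% and 28.6%). RBM12B had 2.37 ± 0.14 and RBM34, which overlaps ARID4B, had -1.76 ± 0.14 in the authors' deposited table. Of the RNA helicases 8 were positive and 17 negative of 49 (16.3% and 34.7%). DDX11 had 2.08 ± 0.12 and DDX39B, an export and splicing helicase that overlaps the readthrough gene ATP6V1G2-DDX39B, had 1.71 ± 0.14, and DDX21, a nucleolar helicase, had -1.29 ± 0.15 in the authors' deposited table. Nuclear pore proteins had 10 positive and 6 negative of 22 (45.5% and 27.3%). Integrator had 6 and 4 of 15 (40% and 26.7%). Cleavage and polyadenylation factors had 5 and 7 of 19 (26.3% and 36.8%), with CPSF1 at 1.15 and NUDT21 at -1.48 in the authors' deposited table.

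The genes of the m6A pathway were not called for 14 of 25 members, 6 were positive and 5 negative, and their median was 0.23 beside 0.10 at like length. Among the writers, METTL3, the catalytic subunit, had 1.18 ± 0.17, RBM15 had 1.77 ± 0.12 and ZC3H13 had 0.77 in the authors' deposited table. WTAP had -0.73 ± 0.12 and CBLL1 had -0.82 ± 0.15 in the authors' deposited table. METTL14, the partner of METTL3, stood at 0.03 and VIRMA at 0.25 without a call in the authors' deposited table. Over the whole list 24% were positive and 20% negative, beside 30.5% and 29.1% of all rows. Among the readers, YTHDC2 had 1.34 ± 0.13, and YTHDF1, YTHDF2, YTHDF3 and YTHDC1 were not called, at 0.49, 0.12, 0.39 and 0.26 in the authors' deposited table. IGF2BP2 had -0.32 and HNRNPC, a reader of structure opened by the mark, had -1.24 ± 0.15 in the authors' deposited table. The other eraser, FTO, stood at -0.26 in the authors' deposited table (edgeR, adjusted p = 0.117). RBM33, the second bait of the series, had 1.17 ± 0.14 in the authors' deposited table. In the AlkB family, to which ALKBH5 belongs, the repair enzymes ALKBH3 and ALKBH2 had -1.49 ± 0.13 and -0.88 ± 0.15 in the authors' deposited table.

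Of 18 published ALKBH5 target RNAs, 14 are among the rows, with 7 positive, 3 negative and a median of 0.29. Beside NEAT1, the positive ones were KLF4 at 2.03, TP53INP1 at 1.81, FOXO1 at 1.17, PER1 at 1.04, PDK1 at 0.82 and FOXO3 at 0.37 in the authors' deposited table. These encode transcription factors, a stress response protein, a clock repressor and a kinase of pyruvate metabolism. FOXO1 overlaps AL133318.1 and PER1 overlaps AC129492.3. UBE2C, a ubiquitin carrier of mitotic exit, had -0.96, FOXM1, a proliferation factor, had -0.99, and DDIT4 had -0.72 in the authors' deposited table. MYC at 0.15, YAP1 at 0.21, TACC3 at 0.00 and ITGB1 at -0.28 were not called in the authors' deposited table. The list thus had members on both sides, and its share of positive calls, 7 of 14, stands beside 30.5% of all rows. The immediate early genes had 6 positive and 1 negative of 20, a positive share of 30% that is close to that of all rows, with EGR1 at 2.37 and ATF3 at -1.48 in the authors' deposited table.

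Collagens and laminins, proteins of the matrix, were mostly positive, and integrins and solute carriers were not. Collagens had 18 positive and 1 negative of 25 and a median of 1.24 beside 0.39. COL27A1 had 3.95 ± 0.18, COL7A1, the anchoring fibril of epithelia, had 3.78 ± 0.54 and COL4A5 had 3.54 ± 0.24, and COL26A1 stood below 0 at -1.04 in the authors' deposited table. Laminins had 6 positive and 0 negative of 10 and a median of 0.77 beside 0.55, with LAMA5 at 3.11 ± 0.15 in the authors' deposited table. Of all protein-coding rows, 45.4% were positive at listed lengths of 8652 to 11188 bases and 59.8% at 11193 to 55886 bases. The positive share of laminins, whose median listed length was 11170.5 bases, was thus close to that of rows of such length. Plexins and semaphorins, receptors and ligands of axon guidance, had 13 positive and 0 negative of 25, with SEMA6C at 4.74 ± 0.32 in the authors' deposited table. Integrins, receptors of the matrix, had 5 positive and 2 negative of 19 (26.3% positive beside 30.5% of all rows), with ITGA7 at 3.30 ± 0.50 in the authors' deposited table. Solute carriers were split at 61 positive and 52 negative of 223, with a median of 0.01 beside 0.04. Vesicle GTPases of the RAB group had 28 negative and 6 positive of 61, led by RAB13, which overlaps AL358472.6 at -2.05, with -2.65 ± 0.18 in the authors' deposited table.

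Families of the cell cycle and cytoskeleton held members of both signs. Centromere proteins had 7 positive and 11 negative of 23 with a rho of 0.85 with listed length, from CENPW at -1.71 to CENPJ at 1.76 in the authors' deposited table. Kinesins had 17 positive and 6 negative of 37, with KIF18B at 1.56 ± 0.13 and KIF5B at -1.04 ± 0.12 in the authors' deposited table. Cyclins had 4 positive and 14 negative of 28. The positive cyclins were those of transcription and splicing, CCNL2 at 3.75 ± 0.17, CCNT2 at 1.83 ± 0.18, CCNL1 at 1.67 ± 0.13 and CCNH at 0.70 ± 0.14, whereas the mitotic cyclins CCNB1 and CCNA2 had -1.24 and -1.21 in the authors' deposited table. Tubulin genes with those of the gamma-tubulin complex had 11 negative and 2 positive of 19, TUBGCP6 at 3.39 ± 0.14 and TUBGCP3 at 0.77 ± 0.18 in the authors' deposited table. The primate-expanded NBPF, NPIP and GOLGA8 families, which lie in segmental duplications, had 37 positive and 1 negative of 40 and a median of 1.83 beside -0.23 at like length. GOLGA8A had 4.22 ± 0.16 and GOLGA8B 4.18 ± 0.15, and NBPF3 was the negative one with -0.57 in the authors' deposited table. Reads of these near-identical copies can be split among them, so single values are uncertain.

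Over all protein-coding genes, the largest positive values were LTB4R, a leukotriene receptor gene that overlaps LTB4R2, at 5.70, EID3, inside TXNRD1, at 5.33 and TNFRSF13C at 5.08 in the authors' deposited table. By F statistic LENG8, an mRNA processing factor, led beside GOLGA8 genes with 4.73 ± 0.17 in the authors' deposited table. The most negative of the called rows were CYP1B1, a cytochrome of steroid and xenobiotic metabolism, at -5.93, CHODL at -5.04 and GAP43, a growth cone protein, at -5.01 in the authors' deposited table. Several of these extreme rows were scarce. CYP1B1 and EID3 had a log2 CPM of at most 1.63, and CHODL and GAP43 of at most 2.65, beside a median of 4.05 for all rows. LTB4R and TNFRSF13C had at least 3.39. Depth per library is unknown, so the counting error of the scarce rows is unknown as well. DBI, the acyl-CoA binding protein, was among the negative genes of largest F, at -2.85 ± 0.14 in the authors' deposited table. Grouped by the letters that start their symbols, 95 stems had at least 15 rows, 4065 rows in all. The lowest medians were those of MT (-1.74), RPL (-1.64), H (-1.63), COX (-1.48), RPS (-1.40) and MRPL (-1.36). The highest were ADAMTS (1.34), COL (1.24), GOLGA (1.24), ANKRD (0.93), TBC (0.81) and KLHL (0.76). Set against like length, GOLGA stood 1.42 above and ADAMTS, secreted proteases, 1.08 above, whereas RPL stood 1.20 below and EIF 0.91 below. Stems such as RPL and COL hold the same rows as the lists above and are no separate evidence.

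The table lists a length for each gene, whose definition is not given in the sources used here and which is not that of 1 mRNA. Values were higher the longer the gene. In 10 bins of equal number, the medians of protein-coding rows increased from bin to bin, from -1.01 in the shortest bin (51 to 2089 bases) through -0.17 in the fifth to 0.70 in the longest (11193 to 55886 bases). The shortest bin had 79 positive and 776 negative of 1321 rows, and the longest 790 positive and 160 negative of 1320. The relation differed with abundance. With length and abundance each divided into 3 parts of equal number, 996 of 1115 short, abundant genes were negative and 30 positive, with a median of -1.26, whereas short genes of low abundance had a median of -0.10. Long genes of low abundance had a median of 0.77, and long, abundant ones 0.15, with 835 positive and 579 negative of 1931. Spearman's rho with length was 0.41 over all protein-coding rows and 0.56 over the 7643 of at least median abundance, and that with genomic span was 0.22. It was 0.34 for lncRNAs, 0.35 for transcribed unprocessed and 0.31 for processed pseudogenes. These are descriptions across genes, which are not independent. Nuclear genes whose listed length equals their span were not low when replication-dependent histones were set aside, since 281 such rows had a median of 0.04 beside -0.59 at like length. Their median log2 CPM was 2.87, and short genes of low abundance had a median of -0.10, which is nearer to theirs. The 40 histone rows whose length equals their span had a median of -1.78. Whether such genes lack introns was not tested.

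**Figure D4:**
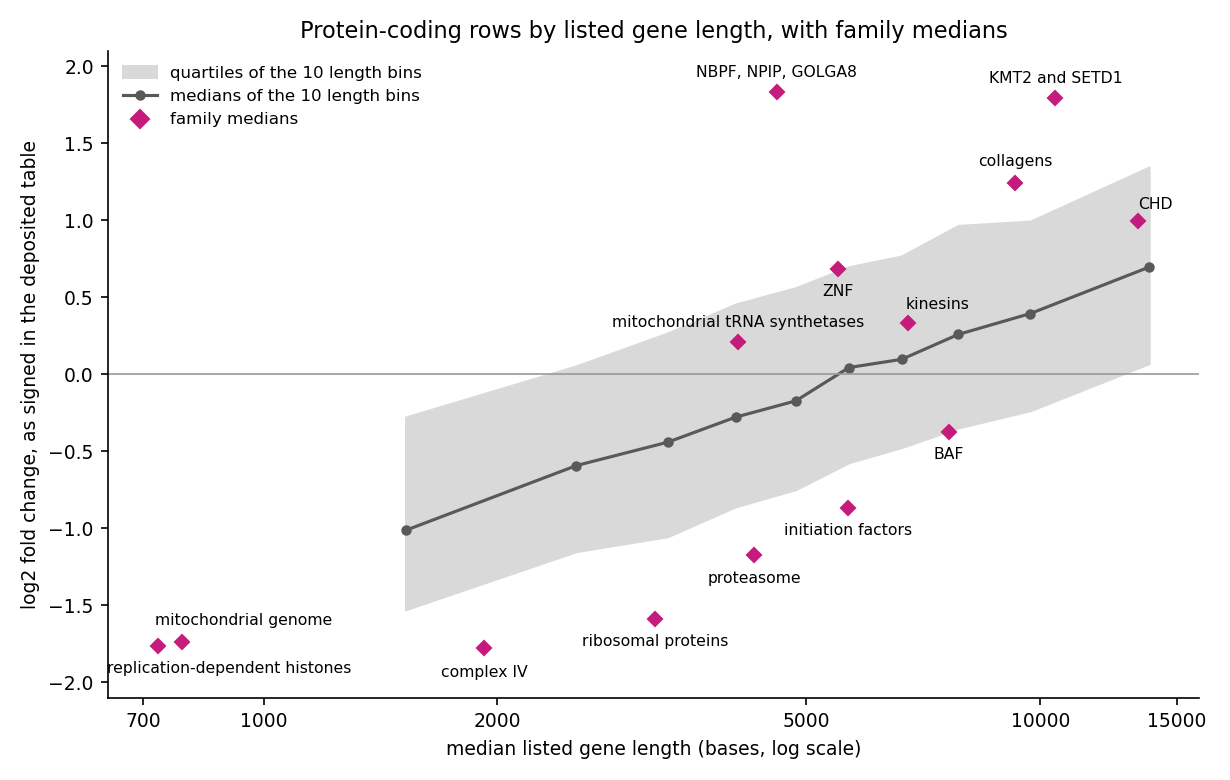
Log2 fold change, as signed in the deposited table, against listed gene length (bases, log scale) for protein-coding rows: the line joins the medians of 10 bins of equal number, the grey band runs from the first to the third quartile, and diamonds are medians of named families at their median length. The bin medians rise from -1.01 to 0.70, with the ribosomal protein and proteasome families below the band and the NBPF, NPIP, GOLGA8 and KMT2 and SETD1 families above it.

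Medians differed little between nuclear chromosomes beside the spread within each. Over the 23 nuclear chromosomes shown, which leave out chromosome Y with its few rows, the medians of protein-coding rows ran from -0.23 on chromosome X and -0.22 on chromosome 6 to 0.04 on chromosome 16 and 0.07 on chromosome 19, a range of 0.30. The distance between the quartiles within a chromosome was 1.37 to 1.64. Chromosome 19 holds 185 of the ZNF rows, and without them its median was -0.11. Among rows of at least median abundance, the medians of all 23 were negative. Chromosome 6 holds the large histone cluster. The mitochondrial genome stood apart, with a median of -1.74 for its 13 mRNAs, of which 12 were negative.

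**Figure D5:**
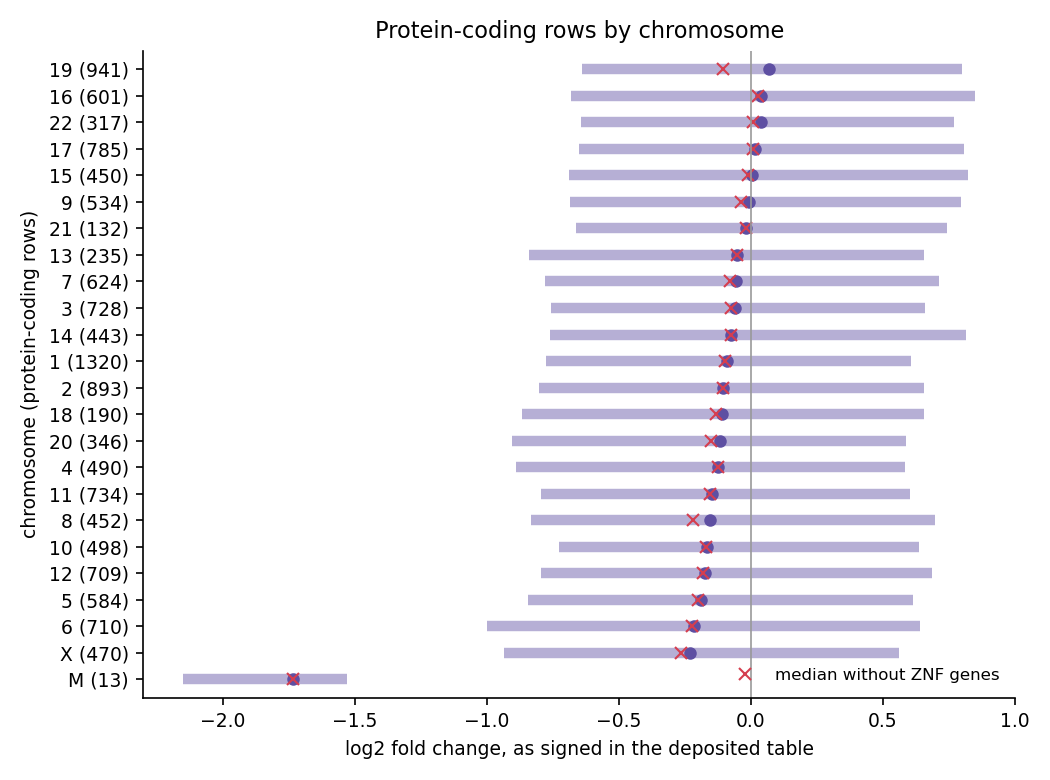
Log2 fold change, as signed in the deposited table, of protein-coding rows by chromosome (number of rows in parentheses): points are medians, bars run from the first to the third quartile, and crosses are medians without ZNF genes. The nuclear medians, without chromosome Y, lie between -0.23 and 0.07 with broad overlap of the bars, and the mitochondrial median lies at -1.74.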

How the data were processed

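Tools named in the submitters' processing notes are edgeR 3.24.3, featureCounts of Subread 1.6.4, the aligner HISAT2 2.1.0 and cutadapt 1.18, with the build hg38. Not given in the sources used here are the annotation release, strand setting, low-count filter, contrast and libraries of the fit. Per the file headers, the authors' deposited table holds 2 log2 values per gene, the fold change and the mean CPM. The F statistic, a score without fixed range, and its p-value and adjusted p-value are the authors', as deposited. The Benjamini-Hochberg adjustment recomputed over the 16324 rows differed from the deposited values by at most 1.19e-15. The table has no values per library, so depth is unknown and no count model, standard deviation or test of a list was possible.

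Rows were called at an adjusted p under 0.05. Gene types with at least 10 rows, fixed gene lists, symbol stems with at least 15 rows, 10 length bins and same-strand containment were summarised in Python 3.11.15 with pandas 2.3.3, and the summary code was tested on simulated data. Named genes are, in each type or list, up to 4 called rows of largest F, up to 3 of largest size in each direction, up to 3 of highest abundance and members of the opposite sign, with the m6A, published target and abundant noncoding lists in full. Other rows (paired hosts and parents, uncalled members of a list, several microRNA rows and the promoter examples) were chosen after their values were seen. Some items are not reported here. Members and lists were chosen with earlier results of these data known. Alternatives were a threshold of 0.01, a minimum of 1 log2 unit, rows of at least median abundance, rows without overlap, genomic span in place of length, and another choice of host. With 3 samples a group by title, the p-values measure only the spread between these samples, which may be technical.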

Additional observations from a re-analysis of the deposited data

How the results depend on the processing

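No paired analysis was possible because the table holds no values per library. For the same reason the replicate left out, the DESeq2 scaling and the unfiltered counts were not run. At an adjusted p under 0.01 the shares of calls over all rows and in each gene type stayed within 1.5 times. With a minimum of 1 log2 unit the negative share of all rows was 16.2% in place of 29.1%, and protein-coding rows had 16.5% positive and 17.8% negative in place of 27.5% and 33.3%. Among rows of at least median log2 CPM, 45.4% of all rows were negative, and of processed pseudogenes 90.2% (55 of 61) in place of 37.6%. Of TEC rows that overlap no other row 29.0% (9 of 31) were positive in place of 50%. Spearman's rho with length was 0.41, with genomic span 0.22, and 0.56 among abundant genes. The chromosome medians of 15, 16, 17, 19 and 22 changed from positive to negative among rows of at least median log2 CPM (-0.29, -0.14, -0.18, -0.26 and -0.16), and those of 15 and 19 did so without ZNF genes (-0.01 and -0.11). Over 75 family and type shares, 251 of 299 recomputed values were within 1.5 times. With the noncoding host taken first, chosen after seeing the data, the median difference was 4.02 for snoRNAs in place of 4.15 and 3.04 for scaRNAs in place of 3.32. Depth per library is unknown, so rows of low average abundance have unknown counting error.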
